A study of Homo sapiens with 2 samples.

Results

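Cardiomyocytes and epithelial-like cells of 1 culture were separated by a few marker genes and their transcripts were set side by side. The cells came from HES2, an embryonic stem cell line of human origin, differentiated towards sinoatrial node-like pacemaker cells (SANLPC). Of 14829 barcodes, 11211 passed the filters of at least 1000 detected genes, at most 25% mitochondrial transcripts and at most 35000 RNA molecules, counted as unique molecular identifiers (UMIs). Cells were chosen by the measured levels of 6 genes. Cardiomyocytes were the 5095 cells (45.4%) with at least 2000 CPM of TNNT2, which encodes cardiac troponin T, and at most 4 UMIs summed over VTCN1, GATA3, CLDN4 and WNT6. Epithelial-like cells were the 4046 cells (36.1%) with under 1000 CPM of TNNT2, under 1000 CPM of the collagen gene COL1A1 and at least 5 UMIs of the same 4 genes. The remaining 2070 cells were on neither side. CPM are UMIs per 1000000 RNA UMIs, taken over a cell or over the summed counts of a side.

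The culture was stained with a barcoded antibody against the surface protein CD34, sorted as live single cells with the dye DAPI without selection on CD34, and made into droplet libraries that count transcripts near their 3′ end. The RNA library and the antibody-tag library came from the same cells and shared all 14829 barcodes. The labels name no treatment, time point or second culture. There was 1 culture and no replicate, so no test was made, and exact 95% intervals cover counting error only.

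Contraction of heart muscle depends on sarcomeres, in which myosin pulls on actin, and on calcium released from the sarcoplasmic reticulum, with ATP supplied mainly by mitochondria. Pacemaker cells of the sinoatrial node contract weakly and instead depolarise on their own through HCN channels and calcium cycling, under transcription factors such as SHOX2, TBX3 and TBX18. Epithelial cells form sheets joined by cadherins, claudins and desmosomes, carry keratin filaments, and rely on transcription factors of the TFAP2 and GRHL families. Amnion and surface ectoderm are early epithelia that can arise beside mesoderm when pluripotent cells are exposed to BMP.

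The 5 genes that separated the sides and COL1A1 are described here without being read as a result. Per cell, TNNT2 had a 5th percentile, median and 95th percentile of 2771, 6844 and 12133 CPM in cardiomyocytes, against 69.9, 310.3 and 762 CPM in epithelial-like cells. The 4 epithelial genes together had a median of 0 UMIs in cardiomyocytes, 70.6% of which had none, and a median of 28 UMIs in epithelial-like cells. Near the limits, 154 cardiomyocytes had TNNT2 at 2000 to 2500 CPM and 131 unassigned cells had 1500 to 2000 CPM, while 87 cardiomyocytes had 3 or 4 epithelial UMIs and 23 cells with high TNNT2 had 5 or 6. On the other side, 71 epithelial-like cells had 5 or 6 of these UMIs and 77 unassigned cells had 3 or 4, and 152 had TNNT2 at 800 to 1000 CPM while 66 unassigned cells had 1000 to 1200 CPM. COL1A1 was limited on 1 side only, and 120 cardiomyocytes had 1000 CPM or more of it.

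Cells with both kinds of marker were few. TNNT2 of 2000 CPM or more went with over 4 epithelial UMIs in 421 cells, which had a median of 24819 RNA UMIs, and 402 of them were called as doublets by Scrublet, a program that looks for droplets with more than 1 cell. Of the other 1649 unassigned cells, 449 had TNNT2 between 1000 and 2000 CPM, 781 had low TNNT2 with COL1A1 at 1000 CPM or more, and 419 had low levels of all the genes used.

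**Figure D1:**
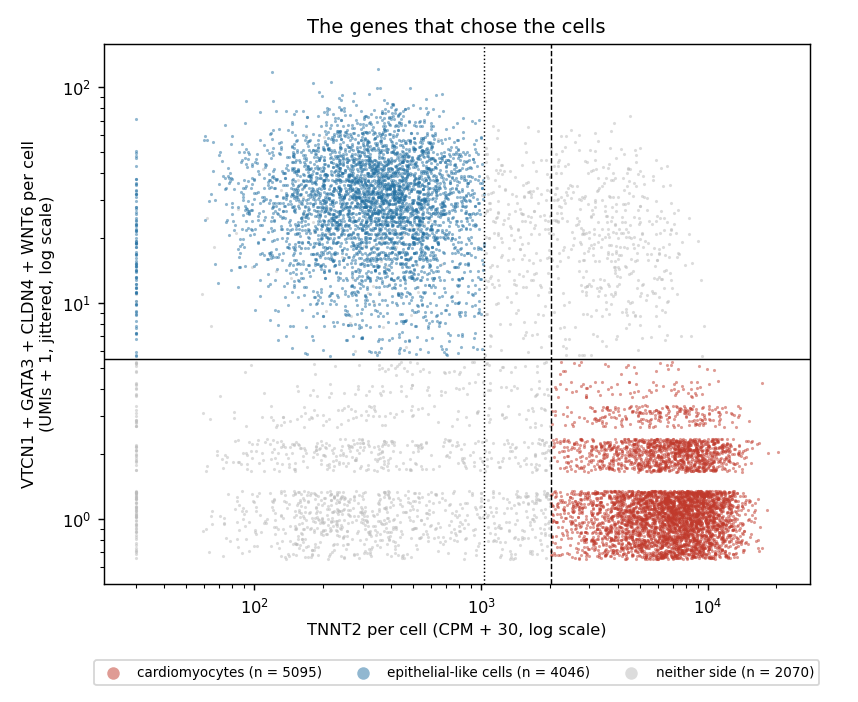
Each point is a cell, with TNNT2 in CPM (plus 30, log scale) on the horizontal axis and the summed UMIs of VTCN1, GATA3, CLDN4 and WNT6 (plus 1, log scale, jittered) on the vertical axis; vertical lines mark 2000 CPM (dashed) and 1000 CPM (dotted) and the horizontal line lies between 4 and 5 UMIs. The 5095 cardiomyocytes lie at lower right and the 4046 epithelial-like cells at upper left, with 2070 unassigned cells in grey between and around them.

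The sides were of similar depth. Cardiomyocytes had a median of 15811 RNA UMIs and 4360 genes, and epithelial-like cells a median of 17453 RNA UMIs and 4755 genes. When every cell was thinned to 5000 UMIs, which left out 284 cardiomyocytes and 68 epithelial-like cells, the medians were 2155 and 2249 genes. Counts summed to 81803904 UMIs over cardiomyocytes and 71800601 over epithelial-like cells, so that 1 count is worth 0.0122 and 0.0139 CPM. MALAT1, a nuclear non-coding RNA, lay at 32911 and 31286 CPM.

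Marker lists of 10 cell classes were read against the names. All 10 cardiomyocyte markers were higher in cardiomyocytes, with a summed level of 48700 CPM against 1295 CPM in epithelial-like cells. All 14 epithelial markers were lower in cardiomyocytes, with 819 CPM against 11792 CPM in epithelial-like cells. Without TNNT2, the 9 other cardiomyocyte markers summed to 41640 CPM against 962 CPM, and without the 4 genes that chose the cells the 10 other epithelial markers summed to 795 CPM against 10069 CPM. All cells were chosen on the same RNA, so the counts describe the sides and are no test of their names. Endothelial, blood, and neural and neural crest markers summed to at most 3.18 CPM on either side, and endoderm markers to 11.1 CPM in cardiomyocytes and 2.48 CPM in epithelial-like cells. Fibroblast, smooth muscle, epicardial and pluripotency markers differed between the sides and are taken up further on.

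The sides differed widely. Among 7590 genes with at least 20 CPM on the side where they were higher, 1073 (14.1%) were at least 2-fold higher in cardiomyocytes and 1325 (17.5%) at least 2-fold lower, 31.6% in all, and 353 and 319 passed 10-fold. "Higher" and "lower" are used below for ratios past 2-fold, and "between" for smaller differences. The cells were split by genes of the same measurement, so these shares are the background against which the lists can be read, and nothing is drawn from them. The median log2 ratio over all measured genes was -0.14.

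**Figure D2:**
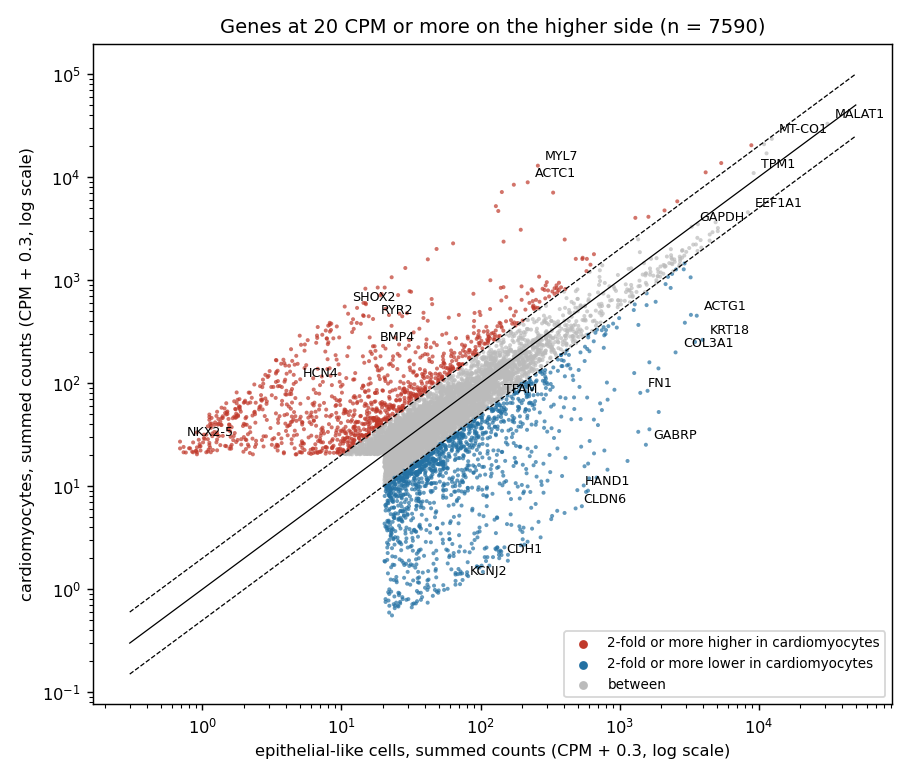
Each point is 1 of 7590 genes, with its summed level in epithelial-like cells on the horizontal axis and in cardiomyocytes on the vertical axis (CPM plus 0.3, log scales); the solid line is equality and the dashed lines are 2-fold. MYL7 and ACTC1 lie far above the lines and GABRP, CLDN6 and CDH1 far below, while TPM1, GAPDH and MALAT1 lie between them.

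The most unequal genes on the cardiomyocyte side included a peptide hormone, a transcription factor of the sinus node and atrial myosins. Among genes of at least 50 CPM, the highest ratio belonged to TRH, which encodes thyrotropin-releasing hormone and lies on chromosome 3 at 129974720 to 129977935 (GRCh38). It had 288 CPM in cardiomyocytes (284.7 to 292) and 4.71 CPM in epithelial-like cells (4.22 to 5.24), a 61.3-fold difference (55.0 to 68.4). A TRH UMI was found in 43.3% of thinned cardiomyocytes and 57.8% of unthinned ones, against 2.41% and 7.51% of epithelial-like cells. TECRL, an endoplasmic reticulum reductase gene linked to inherited arrhythmia, followed at 825 CPM against 14.6 CPM (56.7-fold) and was found in 95.1% of thinned cardiomyocytes.

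SHOX2 encodes a homeobox factor that specifies the sinus node and lies on chromosome 3, bases 158095905 to 158106420. It had 553 CPM in cardiomyocytes and 10.3 CPM in epithelial-like cells, a 54.0-fold difference (50.2 to 58.1). Its UMIs were found in 88.7% of thinned cardiomyocytes (87.7 to 89.5%) and 96.0% unthinned, against 5.33% (4.65 to 6.07%) and 13.0% of epithelial-like cells. Its per-cell level in cardiomyocytes had a 5th percentile, median and 95th percentile of 79.6, 512 and 1158 CPM, whereas the median in epithelial-like cells was 0. The other 12 of the 15 highest were ATP1B2, a sodium pump subunit, MYOCD, the cofactor of serum response factor in heart muscle, SPHKAP, an anchor of protein kinase A, ADRB1, the beta-1 adrenergic receptor, and ESRRG, a nuclear receptor of oxidative metabolism; FRMD3, CCDC141, ALDH1A1, which makes retinoic acid, MYH6, the atrial myosin heavy chain, MYL7, the atrial light chain, RBFOX1, a splicing factor, and PGAM2, the muscle phosphoglycerate mutase. Their ratios ran down to 48.8 for PGAM2.

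On the other side the most unequal genes included claudins, a cadherin, epithelial transcription factors and secreted proteins. NDNF, which encodes a secreted fibronectin-domain protein, had 1.59 CPM in cardiomyocytes (1.33 to 1.89) and 157 CPM in epithelial-like cells (154.05 to 159.9), and was thus 98.8-fold higher in epithelial-like cells. HAPLN1, a link protein of hyaluronan, had 2.88 CPM in cardiomyocytes against 270.2 CPM in epithelial-like cells. EDN1, which encodes the vasoconstrictor endothelin-1, had 2.41 CPM in cardiomyocytes and 207 CPM in epithelial-like cells. The tight junction genes CLDN6 and CLDN7, the cadherin CDH1, the transcription factors GRHL2 and TFAP2B, the TEAD cofactor VGLL1 and the potassium channel gene KCNJ2 were also among the 15. The remaining 5 were P2RY6, a receptor for uridine nucleotides, XAGE2, a cancer-testis antigen, SLITRK6, TCIM and TMEM154. NDNF aside, the folds lay between 79.5 for TMEM154 and 93.7 for HAPLN1.

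Low levels of either side's genes were present on the other side. Among the genes past 10-fold with at least 200 CPM, 82 cardiomyocyte genes stood in epithelial-like cells at a median of 2.79% of their cardiomyocyte level (1.63 to 9.46%). The 71 epithelial genes of that kind stood in cardiomyocytes at a median of 4.18% of their epithelial-like level (1.07 to 9.82%). Droplets also take up free RNA, and values of this size are not read here as expression. Such values are the lower level in the folds of the most unequal genes, as for TRH at 1.63%. The size and order of those folds therefore depend on them.

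**Figure D3:**
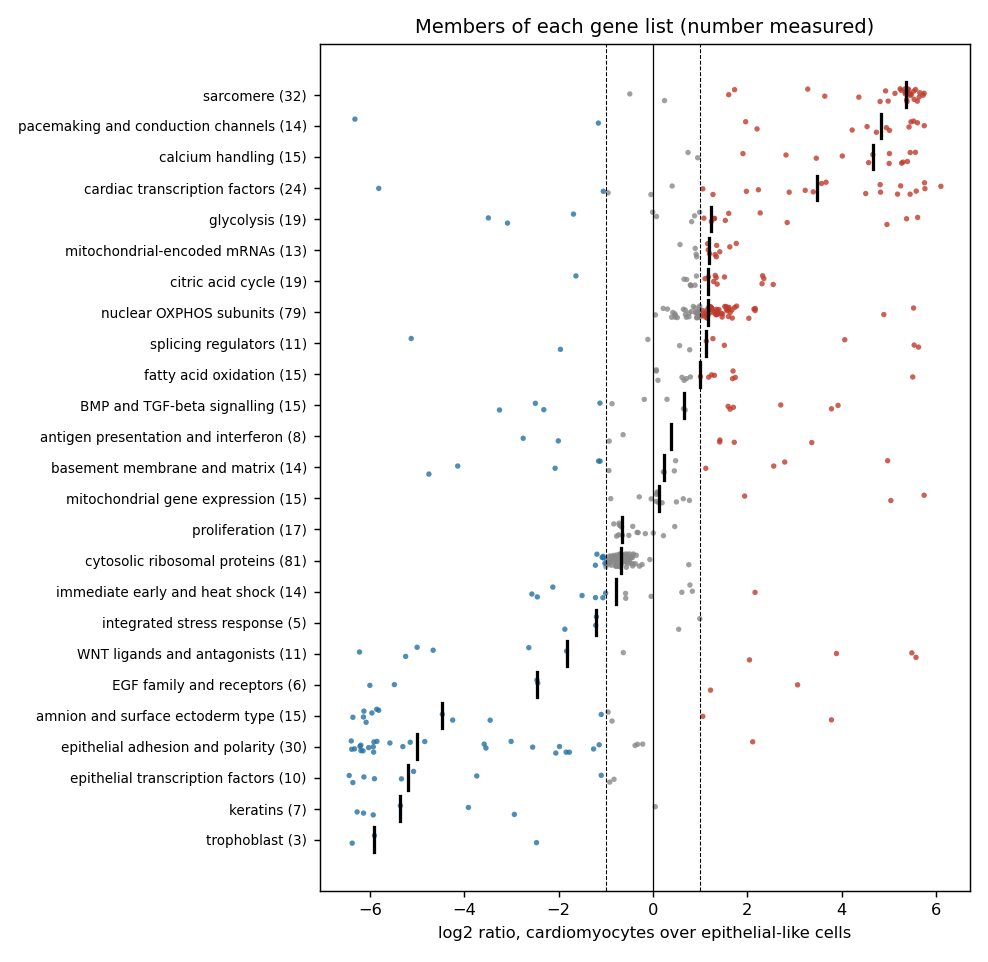
Each row is a gene list with the number of its measured members in brackets; points are members by log2 ratio of cardiomyocytes over epithelial-like cells, the black bar is their median and dashed lines mark 2-fold. Sarcomere genes have a median of 5.36 and trophoblast genes of -5.90, and the metabolic lists with medians of 1.01 to 1.24 lie close to the right dashed line.

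Sarcomere genes were the most uniform list on the cardiomyocyte side. Of 32 measured members 30 were higher, none was lower and the median log2 ratio was 5.36 (4.98 to 5.45 over ranked members), against -0.14 over all genes. The list took a median of 6.83% of the RNA UMIs of a cardiomyocyte and 1.06% of those of an epithelial-like cell, where TPM1 made up most of the summed count. MYL7, on chromosome 7 at 44138864 to 44141332, had 12888 CPM in cardiomyocytes and 258 CPM in epithelial-like cells, a 49.9-fold difference (49.2 to 50.6). Its per-cell level had a 5th percentile, median and 95th percentile of 3930, 11719 and 24618 CPM in cardiomyocytes, against 48.4, 225 and 648 CPM in epithelial-like cells, so the central 90% of the sides did not overlap.

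TTN, the giant elastic protein of the sarcomere, had 8420 CPM in cardiomyocytes and 173 CPM in epithelial-like cells. ACTC1, cardiac alpha-actin, had 8886 against 218 CPM. The myosin heavy chain of the cardiomyocytes was MYH6, the atrial form, at 7150 CPM against 142 CPM in epithelial-like cells. The ventricular and slow form MYH7 had 4.27 CPM against 0.0975 CPM and was found in 1.54% of thinned cardiomyocytes, which left it under the floor for measured genes. Troponin I was represented by the fetal TNNI1 at 1589 CPM against 41.5 CPM and by the adult TNNI3 at 537 CPM against 12.6 CPM.

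The exceptions in the list were TPM1 and ANKRD1. TPM1, a tropomyosin gene with muscle and non-muscle isoforms that these 3′ counts cannot tell apart, had 10927 CPM in cardiomyocytes and 9216 CPM in epithelial-like cells. ANKRD1, a stretch-responsive ankyrin repeat gene, had 113 CPM in cardiomyocytes and 159 CPM in epithelial-like cells.

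The sequence before the start of some of these genes holds letters known to be bound by muscle factors. Such letters were found in stretches of ACTC1, MYL7 and TTN. The stretch of CLDN6, an epithelial gene lower in cardiomyocytes, holds a motif bound by TFAP2 proteins. These 4 genes were taken from those described. RefSeq promoters of assembly GRCh38.p14 were available for 20 of the 30 higher sarcomere genes, with 29 annotated starts, and the 250 bases before each start were searched on both strands. The CArG box, bound by serum response factor, was found in 5 of the 29 (17.2%) and in 1.16% of 35116 promoters of the table; LDB3, with overlapping windows from 2 starts, gave 2 of the 5. The MEF2 motif, CTA and TAG with any 4 bases between them, was found in 5 of the 29 (17.2%) and in 2.36% of all. Other genes higher in cardiomyocytes did not share these figures. Neither motif was found in 18 promoters of 11 of the 13 higher calcium handling genes. Each was found in 1 of 42 promoters (2.38%) of the higher nuclear genes of oxidative phosphorylation. The AP-2 motif GCCNNNGGC, bound by TFAP2 proteins, was found in 6 of 21 promoters (28.6%) of 17 of the 26 lower adhesion genes, in 8 of the 29 sarcomere promoters (27.6%) and in 19.8% of all. Both windows of LDB3 count among the 8 too. The letters TATAAA and CATTCC were also searched. Each was found in 5 of the 29 sarcomere promoters (17.2%), against 10.7% and 11.9% of all. The GRHL motif AACNGGTT was found in 1 of the 21 adhesion promoters, in 0 of the 29 and in 1.49% of all. The shares were not tested against each other, and these are matches of letters and not measured binding. Each stretch below is the 250 bases that precede the start on the minus strand, written 5′ to 3′. Capitals mark only a CArG box in ACTC1 and MYL7, a MEF2 motif in TTN and an AP-2 motif in CLDN6. Matches of other motifs were left in lower case. The ACTC1 stretch also holds 2 AP-2 motifs, against 1 in that of CLDN6. ACTC1 has other annotated starts without a CArG box.

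ACTC1, chr15:34795550-34795799, minus strand: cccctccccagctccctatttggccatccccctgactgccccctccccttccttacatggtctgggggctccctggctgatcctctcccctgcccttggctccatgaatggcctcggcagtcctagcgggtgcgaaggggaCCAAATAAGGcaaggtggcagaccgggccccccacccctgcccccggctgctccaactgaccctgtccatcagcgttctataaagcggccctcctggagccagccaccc
MYL7, chr7:44141333-44141582, minus strand: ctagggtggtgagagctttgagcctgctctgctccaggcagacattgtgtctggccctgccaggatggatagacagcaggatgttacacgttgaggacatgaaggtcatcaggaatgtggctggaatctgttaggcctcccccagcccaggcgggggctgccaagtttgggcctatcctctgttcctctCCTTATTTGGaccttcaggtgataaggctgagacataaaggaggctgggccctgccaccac
TTN, chr2:178807424-178807673, minus strand: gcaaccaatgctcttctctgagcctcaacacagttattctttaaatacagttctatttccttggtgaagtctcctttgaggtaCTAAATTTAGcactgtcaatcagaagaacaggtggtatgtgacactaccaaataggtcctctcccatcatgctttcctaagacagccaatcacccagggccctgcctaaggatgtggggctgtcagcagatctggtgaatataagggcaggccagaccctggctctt
CLDN6, chr16:3018184-3018433, minus strand: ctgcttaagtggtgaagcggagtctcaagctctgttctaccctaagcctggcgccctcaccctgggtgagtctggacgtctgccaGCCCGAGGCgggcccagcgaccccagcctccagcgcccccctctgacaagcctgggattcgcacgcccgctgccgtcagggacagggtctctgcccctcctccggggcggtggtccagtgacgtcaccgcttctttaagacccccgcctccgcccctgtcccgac

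Calcium handling genes followed the sarcomere genes. Of 15 measured, 13 were higher and none lower, with a median log2 ratio of 4.66. PLN, the inhibitor of the sarcoplasmic reticulum calcium pump, had 846 CPM in cardiomyocytes and 17.9 CPM in epithelial-like cells, and the pump itself, ATP2A2, had 2360 against 146 CPM. RYR2, the calcium release channel on chromosome 1 at 237042184 to 237833988, had 419 against 16.6 CPM (25.3-fold, 23.8 to 26.8). SLC8A1, the sodium-calcium exchanger, had 846 against 20.2 CPM.

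The voltage-gated calcium channels were uneven. CACNA1D, the L-type channel of pacemaker cells, had 111 CPM in cardiomyocytes and 15.7 CPM in epithelial-like cells, and CACNA1G, a T-type channel, had 31.3 against 0.975 CPM. CACNA1C, the L-type channel of working heart muscle, had 8.56 against 11.9 CPM, under the floor on both sides. CASQ2, the calcium buffer of the reticulum, was also under the floor with 8.17 against 2.12 CPM.

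Channel and receptor genes of pacemaking and conduction gave 12 higher and 2 lower of 14 measured, with a median of 4.84. HCN4, the main channel of the pacemaker current, on chromosome 15 at 73319859 to 73368958, had 102 CPM in cardiomyocytes and 4.40 CPM in epithelial-like cells (23.2-fold, 20.7 to 26.05). A HCN4 UMI was found in 38.04% of thinned cardiomyocytes (36.7 to 39.4%) and 70.1% unthinned, against 2.31% (1.87 to 2.83%) and 6.80% of epithelial-like cells. The acetylcholine-gated potassium channel subunits KCNJ3 and KCNJ5 had 48.6 against 1.504 and 41.3 against 0.933 CPM. Receptors of the autonomic input to the node were both higher, ADRB1 at 52.4 against 0.975 CPM and the muscarinic receptor CHRM2 at 111 against 5.96 CPM.

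KCNJ2 and KCNA5 were the lower members. KCNJ2, the inward rectifier that holds the resting potential of working heart muscle, on chromosome 17 at 70169532 to 70180044, had 0.929 CPM in cardiomyocytes (0.732 to 1.16) and 74.0 CPM in epithelial-like cells (72.0 to 76.0). Its UMIs were found in 0.478% of thinned cardiomyocytes (0.303 to 0.716%) and 1.45% unthinned, against 31.5% (30.1 to 33.0%) and 63.4% of epithelial-like cells. KCNA5, the atrial ultrarapid potassium channel, had 15.5 against 34.6 CPM. The gap junction gene GJC1 was higher at 103 against 22.3 CPM, and GJA5, encoding a fast-conducting connexin, at 22.2 against 5.70 CPM, while GJA1 lay under the floor with 5.29 against 4.28 CPM.

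Cardiac transcription factors were less uniform than the contractile genes. Of 24 measured, 19 were higher, 2 lower and 3 between, with a median of 3.48. NKX2-5, the homeobox factor of working myocardium, had the highest ratio of all measured genes at 68.6 (47.3 to 103.5), but at a low level of 26.8 CPM in cardiomyocytes against 0.390 CPM in epithelial-like cells. It was found in 8.09% of thinned cardiomyocytes (7.33 to 8.89%) and 13.9% unthinned, against 0.251% (0.121 to 0.462%) and 0.667% of epithelial-like cells.

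TBX5, a T-box factor of the heart, had 156 CPM in cardiomyocytes against 3.58 CPM in epithelial-like cells, and TBX18, of the sinus horn, had 91.1 against 2.40 CPM. MEF2C had 168 against 3.52 CPM, and GATA4 had 93.4 against 3.30 CPM. TBX3 and ISL1, which act in the sinus node and also in other tissues, differed far less. TBX3 had 198 CPM in cardiomyocytes and 81.9 CPM in epithelial-like cells (2.42-fold, 2.34 to 2.49), and ISL1 had 71.9 against 34.5 CPM (2.08-fold, 1.98 to 2.18). HAND1, a factor of extraembryonic mesoderm and the early left ventricle, was lower at 8.85 CPM in cardiomyocytes against 497 CPM in epithelial-like cells. Its relative HAND2 was higher at 163 against 15.5 CPM. MEIS1 was lower at 21.9 against 45.4 CPM, and NR2F2, HEY1 and MEIS2 were between.

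Epithelial transcription factors, keratins and junction genes made up the opposite programme. Of 10 measured epithelial factors, 8 were lower in cardiomyocytes and none higher, with a median log2 ratio of -5.20. TFAP2A had 2.02 CPM in cardiomyocytes and 141 CPM in epithelial-like cells, TFAP2B had 2.37 against 195 CPM, and GRHL2, on chromosome 8 at 101492439 to 101681200, had 0.819 against 70.9 CPM. ELF3 had 3.20 against 129 CPM and KLF5 10.3 against 137 CPM. SOX9 and HES1 were between. TP63, the factor of stratified epithelia, had 0.0122 against 0.167 CPM, and GRHL3 0.0489 against 2.53 CPM, both under the floor.

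The keratins of simple epithelia, KRT8, KRT18 and KRT19, were lower in cardiomyocytes. KRT18 had 263 CPM in cardiomyocytes and 3950 CPM in epithelial-like cells, KRT8 had 385 against 2949 CPM and KRT19 had 33.4 against 1363 CPM. KRT7, KRT23 and KRT17, a keratin of basal-type epithelial cells, were also lower, and KRT10, of stratified epithelia, was between at 185 against 179 CPM. KRT5 and KRT14, of the basal layer of stratified epithelia, had at most 0.195 CPM on either side. A KRT7 UMI was found in 35.1% of thinned epithelial-like cells and 61.0% unthinned, against 0.935% and 2.67% of cardiomyocytes.

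Of 30 measured adhesion and polarity genes, 26 were lower, 1 higher and 3 between, with a median of -4.99. CLDN6, a claudin of early epithelia on chromosome 16 at 3014712 to 3018183, had 5.78 CPM in cardiomyocytes (5.27 to 6.33) and 483 CPM in epithelial-like cells (477.6 to 487.8), a ratio of 0.0120 (0.0109 to 0.0131). Its UMIs were found in 2.99% of thinned cardiomyocytes and 8.32% unthinned, against 89.0% and 99.1% of epithelial-like cells. CDH1, the epithelial cadherin, had 1.70 against 136 CPM, and RAB25, a small GTPase of apical recycling, had 2.75 against 201 CPM. Genes of this list for junctions that heart muscle also builds in its intercalated discs were partly lower and partly between. The cadherin CDH2, outside the list, was higher at 282 against 80.5 CPM. DSP, the desmosomal plakin, had 349 CPM in cardiomyocytes and 768 CPM in epithelial-like cells, and the desmosomal cadherins DSC2 and DSG2 had 29.0 against 337 and 61.6 against 243 CPM, whereas JUP, PKP2 and TJP1 were between. ITGA6, a laminin receptor subunit, was the higher member at 62.9 against 14.5 CPM.

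Genes of amnion and surface ectoderm type went mostly with the epithelial-like cells, with 11 lower, 2 higher and 2 between of 15 measured and a median of -4.46. GABRP, a GABA receptor subunit of amnion, had 24.9 CPM in cardiomyocytes and 1547 CPM in epithelial-like cells and was found in 99.4% of thinned epithelial-like cells (99.1 to 99.6%), against 11.1% of cardiomyocytes. IGFBP3, a binding protein of insulin-like growth factors, had 14.2 against 819 CPM. KCNMA1, a calcium-activated potassium channel, had 4.84 against 327 CPM. BMP4 and ISL1 of the same list were instead higher in cardiomyocytes. Of 12 trophoblast genes 3 were measured, XAGE2, SDC1 and TFAP2C, all lower, and the hormone and syncytium genes CGA, CGB5, ERVW-1 and ERVFRD-1 had at most 1.39 CPM on either side.

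The epithelial-like cells also carried matrix genes that mark fibroblasts. COL1A1 had been limited in them by the choice of cells, but COL3A1 had 198 CPM in cardiomyocytes and 2528 CPM in epithelial-like cells, LUM 11.8 against 684 CPM and DCN 23.9 against 529 CPM. The COL3A1 transcript was found in 99.6% of thinned epithelial-like cells (99.4 to 99.8%) and 99.9% unthinned, against 36.2% (34.8 to 37.6%) and 65.0% of cardiomyocytes. It was therefore not held by a small group of cells, and the 5th percentile of its per-cell level in epithelial-like cells was 1057 CPM. Other fibroblast markers did not follow. PDGFRA, a receptor of mesenchyme that is also found in sinus node precursors, had 51.0 CPM in cardiomyocytes and 1.16 CPM in epithelial-like cells, and TCF21 had 1.92 against 0.125 CPM. POSTN, under the floor, had 18.6 against 2.40 CPM. Of the 9 fibroblast markers 6 were measured, 3 of them lower and 1 higher in cardiomyocytes. The summed level of the 9 was 538 against 4068 CPM, with none of them at 0 on either side, and COL3A1 made up most of the second sum.

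Among 9 pluripotency markers 1 passed the floor, the RNA-binding protein gene L1TD1, at 2.25 CPM in cardiomyocytes and 148 CPM in epithelial-like cells. All 9 summed to 6.83 CPM in cardiomyocytes and 172 CPM in epithelial-like cells. Smooth muscle markers were higher in cardiomyocytes for 4 of 5 measured, with ACTA2 at 2271 against 63.2 CPM and MYH11 at 711 against 18.7 CPM, and TAGLN between at 338 against 423 CPM. The 9 epicardial markers summed to 32.0 CPM in cardiomyocytes and 99.8 CPM in epithelial-like cells, and all 3 that were measured were lower. UPK3B had 3.17 against 22.7 CPM, BNC1 2.65 against 25.2 CPM and LRRN4 1.15 against 38.1 CPM.

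Mitochondrial transcripts took a 2.08-fold larger share of a cardiomyocyte's RNA. Per cell, their share had a median of 12.1% in cardiomyocytes (quartiles 9.67 and 14.9%) and 5.82% in epithelial-like cells (4.78 and 7.18%), and 95.3% of cardiomyocytes lay above the epithelial-like median. In UMIs the medians were 1896 and 1023.5, so the difference was in the number of mitochondrial UMIs as well as in their share. Shares over 15% were found in 24.5% of cardiomyocytes and 1.95% of epithelial-like cells. A high mitochondrial share is also used as a sign of damaged cells, and the part of such cells in the difference was not tested. Among cells with at most 15%, a limit set on the same share, the medians differed 1.89-fold.

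All 13 mitochondrial mRNAs had higher levels in cardiomyocytes, 9 of them past 2-fold and none lower, but unequally. MT-ND4L, a subunit of complex I, differed by 3.40-fold (3.34 to 3.46), with 742 CPM in cardiomyocytes and 218 CPM in epithelial-like cells. MT-CO3, a subunit of complex IV, differed by 1.49-fold (1.48 to 1.49), with 16973 against 11408 CPM. The 3 complex IV genes and MT-ND6 were the members between.

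**Figure D4:**
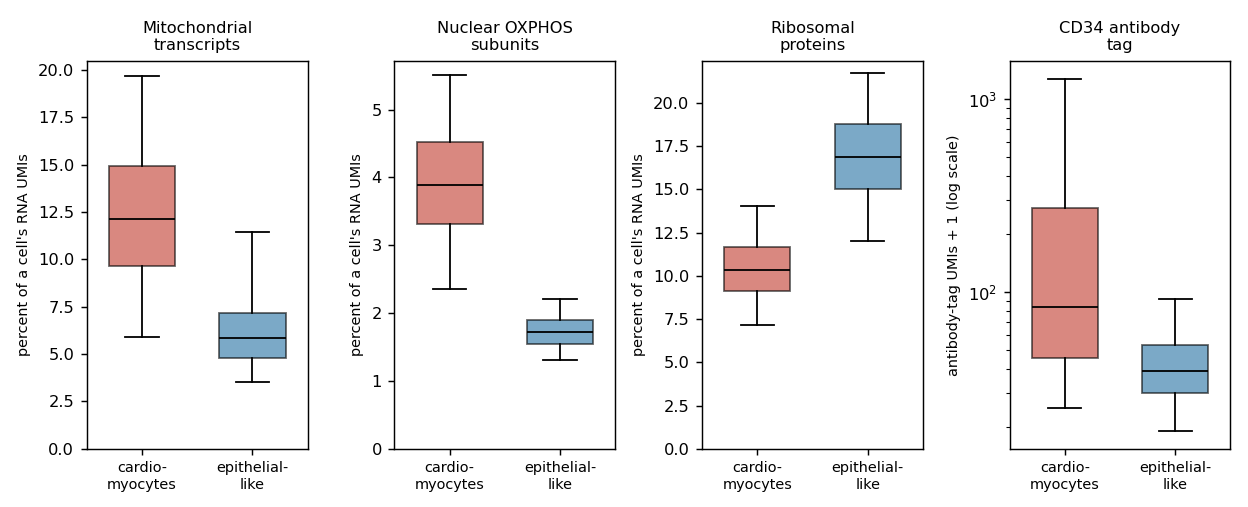
Boxes show quartiles and medians over cells and whiskers the 5th and 95th percentiles, cardiomyocytes left (n = 5095) and epithelial-like cells right (n = 4046), for the percent of RNA UMIs in mitochondrial transcripts, nuclear genes of oxidative phosphorylation and ribosomal protein genes, and for antibody-tag UMIs plus 1 on a log scale. Medians are 12.1 and 5.82%, 3.89 and 1.72%, 10.4 and 16.9%, and 83 and 38 UMIs before 1 was added.

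Nuclear genes of oxidative phosphorylation were higher as well. Of 79 subunits, all measured, 48 were higher and none lower, and the median log2 ratio was 1.16 (0.99 to 1.24). They took a median of 3.89% of a cardiomyocyte's UMIs and 1.72% of an epithelial-like cell's, and 96.0% of cardiomyocytes lay above the 95th percentile of epithelial-like cells. UQCRQ stood at the list median, with 377 CPM in cardiomyocytes and 169 CPM in epithelial-like cells. Among the larger differences were ATP5F1B of the ATP synthase at 1078 against 264 CPM and the electron carrier CYCS at 633 against 141 CPM. The muscle forms of cytochrome oxidase differed by far more. COX6A2 had 23.0 against 0.501 CPM and COX7A1 277 against 9.33 CPM.

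The citric acid cycle (11 of 19 higher, 1 lower, median 1.17) and fatty acid oxidation (8 of 15 higher, none lower, median 1.01) had similar medians. The shares over all genes were 14.1% higher and 17.5% lower. The highest ratio of the cycle list was that of MDH1, cytosolic malate dehydrogenase, with 854 CPM in cardiomyocytes and 146 CPM in epithelial-like cells. The mitochondrial form MDH2 was between at 299 against 171 CPM. In the pyruvate dehydrogenase complex PDHA1 had 491 against 98.2 CPM and DLAT was also higher, while PDHB, PDHX and DLD were between. The succinyl-CoA ligase subunits split: the ATP-forming SUCLA2 was higher at 106 against 49.5 CPM, and the GTP-forming SUCLG2 was lower at 11.5 against 35.6 CPM. FABP3, which carries fatty acids in heart muscle, had 289 against 6.36 CPM. CPT1B, the muscle carnitine palmitoyltransferase, was under the floor with 4.84 against 2.28 CPM, and CPT1A was between at 44.7 against 25.8 CPM.

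Glycolysis genes gave 11 higher and 3 lower of 19, beside 14.1% and 17.5% over all genes, with a median of 1.24. The glucose transporters were the opposite of most enzymes. SLC2A1 had 15.4 CPM in cardiomyocytes and 173 CPM in epithelial-like cells, and SLC2A3 had 55.8 against 472 CPM. GAPDH lay at 3291 and 3305 CPM.

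The list of mitochondrial gene expression, which also held HSPD1, HSPE1 and regulators of nuclear genes, mostly differed by less than 2-fold. Of 15 measured, 12 were between, 3 higher and none lower, with a median of 0.12. Over all genes 14.1% were higher and the median was -0.14. TFAM, which packages and transcribes mitochondrial DNA, had 70.1 CPM in cardiomyocytes and 130 CPM in epithelial-like cells, in the opposite direction to the transcripts of that genome. The 3 higher members were the coactivator PPARGC1A at 48.1 against 1.46 CPM and the estrogen-related receptors ESRRA at 66.2 against 17.2 CPM and ESRRG at 63.5 against 1.18 CPM, which act on nuclear genes of oxidative metabolism.

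Ribosomal protein genes, a list added after values had been seen, were lower as a group by less than 2-fold. Of 81 measured, 6 were lower, none higher and 75 between, with a median of -0.69 (-0.76 to -0.64). Over all genes 17.5% were lower, and the count of 6 was 2 with CPM over nuclear-encoded UMIs or with centring on the median gene, and 11 in cells without MKI67 and TOP2A UMIs. The whole list took a median of 10.4% of a cardiomyocyte's UMIs and 16.9% of an epithelial-like cell's, and 80.2% of cardiomyocytes lay below the 5th percentile of epithelial-like cells. EEF1A1, the general elongation factor, had 4554 against 8375 CPM, and its muscle and neuron relative EEF1A2 had 327 against 8.11 CPM. Shares of a cell's RNA are not independent of each other, since a larger share of mitochondrial and sarcomere UMIs leaves less for other genes. The part of this in the ribosomal difference was not tested. The ribosomal median was -0.58 with CPM over nuclear-encoded UMIs and -0.55 with centring on the median gene.

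Related genes with a heart or muscle form and a general or epithelial form were compared in 27 pairs, matched by gene family or by function. Both members were measured in 22 pairs, and the heart or muscle member had the higher log2 ratio in 22 of 22. For lactate dehydrogenase LDHB, the heart chain, was taken as that member, although LDHA is the chain of skeletal muscle. In 20 pairs the heart or muscle member was higher past 2-fold, and in 7 of these its counterpart was lower past 2-fold. Over all genes 14.1% were higher and 17.5% lower. The pairs were chosen with earlier results of these data known, so these counts describe the chosen pairs only. The actins were the plainest case, with ACTC1 at 8886 CPM in cardiomyocytes against 218 CPM in epithelial-like cells and ACTG1, a cytoplasmic actin, at 451 against 3591 CPM. The same held for ACTN2 and ACTN4 (alpha-actinins), MYH6 and MYH9 (myosin heavy chains), TMOD1 and TMOD3 (tropomodulins), CDH2 and CDH1 (cadherins), DES and KRT8 (intermediate filaments) and RBM24 and ESRP1 (splicing regulators).

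In 6 pairs both members were higher. CKM and CKB, the muscle and brain creatine kinases, had 1064 against 22.7 and 313 against 11.6 CPM, and HSPB7 and HSPB1, small heat shock proteins, had 445 against 27.0 and 524 against 117 CPM. In 7 other pairs the counterpart was between, as with ENO3 at 239 against 7.67 CPM and ENO1 at 309 against 294 CPM. The pairs without a higher heart or muscle member were TPM1 with TPM4 and PKP2 with PKP3. Close relatives can share reads, and how such reads were divided is not given in the sources used here.

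**Figure D5:**
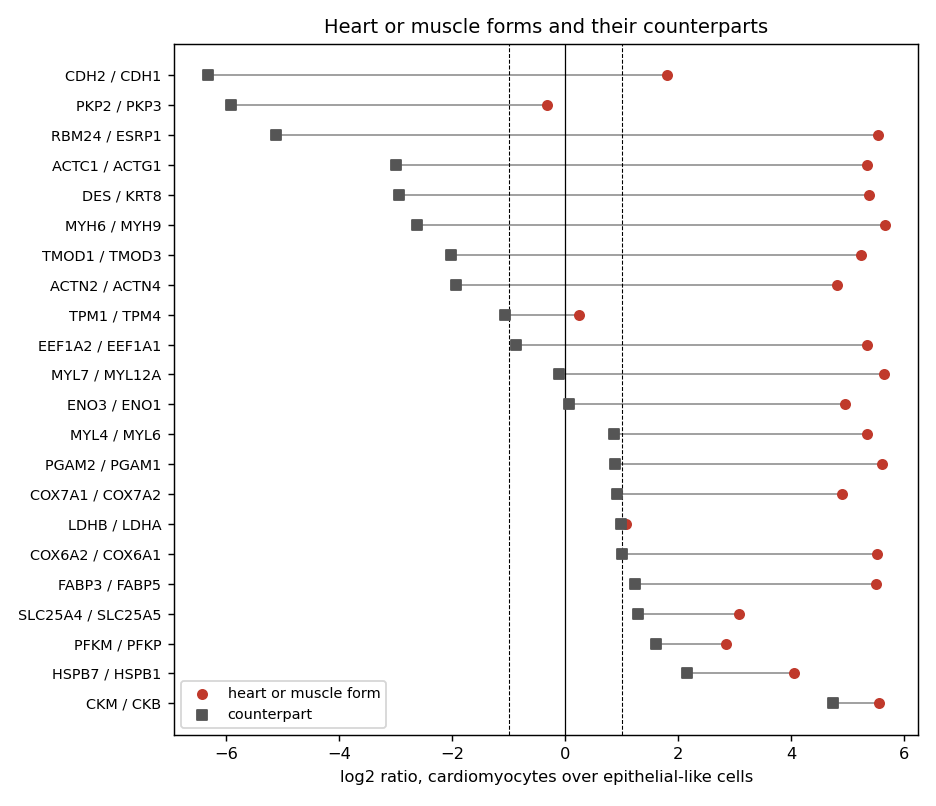
Each row is a pair, with circles for the heart or muscle form and squares for its counterpart on an axis of log2 ratio of cardiomyocytes over epithelial-like cells; dashed lines mark 2-fold. Circles lie to the right of squares in 22 of 22 rows, by the most for RBM24 and ESRP1 and by the least for LDHB and LDHA.

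Splicing regulators gave 6 higher, 2 lower and 3 between of 11 measured, beside 14.1% higher and 17.5% lower over all genes. RBM24 and RBM20, which control splicing of titin and other muscle transcripts, had 368 against 7.94 and 116 against 6.92 CPM. ESRP1, the splicing factor of epithelia, had 1.20 CPM in cardiomyocytes and 41.7 CPM in epithelial-like cells, and PTBP1, a repressor of muscle exons, had 28.9 against 112 CPM. Transcripts were counted near their 3′ end, so splicing itself was not measured.

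Signalling genes were split between the sides. Of 11 measured WNT ligands and antagonists, 4 were higher and 6 lower, beside 14.1% and 17.5% over all genes. The antagonists SFRP1, at 655 CPM in cardiomyocytes and 44.2 CPM in epithelial-like cells, SFRP5, at 66.3 against 1.39 CPM, DKK1, at 38.1 against 0.850 CPM, and DKK3 were higher. SFRP2 had the opposite pattern to SFRP1, at 20.5 against 655 CPM. The ligands WNT7B, WNT4 and WNT2B and the WNT amplifier RSPO3, at 2.03 against 76.7 CPM, were lower, as was the antagonist FRZB.

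BMP and TGF-beta genes gave 6 higher and 4 lower of 15, beside 14.1% and 17.5% over all genes. The ligands BMP2, BMP4, BMP5 and BMP7 were higher in cardiomyocytes, with BMP4 at 228 CPM against 16.5 CPM in epithelial-like cells (13.8-fold, 13.0 to 14.6) and BMP5 at 265 against 40.6 CPM. The antagonist NOG was lower at 3.47 against 33.1 CPM. Among the ID genes, targets of BMP signalling, ID3 was higher at 643 against 197 CPM, ID1 and ID4 were lower at 308 against 670 and 91.5 against 515 CPM, and ID2 was between.

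Of 6 measured genes of the EGF family, the receptors ERBB4 (41.3 CPM in cardiomyocytes, 4.93 CPM in epithelial-like cells) and ERBB2 were higher and EGFR (20.4 against 112 CPM), ERBB3 (1.75 against 112 CPM) and the ligands AREG and HBEGF were lower. Basement membrane and matrix genes went both ways, 4 higher and 5 lower of 14, beside 14.1% and 17.5% over all genes. NID1 had 39.4 against 1.25 CPM, LAMB1 8.48 against 228 CPM and FN1, fibronectin, 80.1 against 1409 CPM, while the collagen IV genes COL4A1 and COL4A2 were between.

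Proliferation, stress and antigen presentation lists were also read, beside shares over all genes of 14.1% higher and 17.5% lower. All 17 measured proliferation genes were between, with a median of -0.65, but with stricter sides 9 of 17 were lower and the median was -1.04. MKI67 had 140 CPM in cardiomyocytes and 232 CPM in epithelial-like cells. Immediate early and heat shock genes gave 1 higher and 7 lower of 14, with FOS at 107 against 464 CPM, JUN at 427 against 993 CPM and EGR1 between at 259 against 170 CPM. ATF4, DDIT4 and PHGDH of 5 measured genes of the integrated stress response were lower, as ATF4 at 79.8 against 183 CPM. Antigen presentation genes were split, with B2M higher at 600.4 against 225 CPM and HLA-C and HLA-E lower.

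The CD34 antibody tag took no part in choosing the cells and was more abundant on cardiomyocytes. It was the only tag in the matrix, so background binding was not measured. The tag level of epithelial-like cells is therefore not read as CD34 protein. Tag UMIs summed to 1474773 over cardiomyocytes and 186227 over epithelial-like cells, with a 95th percentile of 1279 per cardiomyocyte. No test was possible with 1 culture. The median was 83 antibody-tag UMIs in cardiomyocytes (quartiles 44.5 and 272) and 38 in epithelial-like cells (29 and 52), a ratio of 2.18, and per 10000 RNA UMIs it was 64.3 and 22.9. Of cardiomyocytes, 80.5% lay above the epithelial-like median and 47.0% above the epithelial-like 95th percentile of 91, so the groups overlapped over the lower part of the range. The CD34 transcript, on chromosome 1 at 207880972 to 207911125, had 7.85 CPM in cardiomyocytes (7.25 to 8.48) and 0.195 CPM in epithelial-like cells, on 642 and 14 counts. It was found in 3.51% of thinned cardiomyocytes (3.01 to 4.07%) and 8.81% unthinned, against 0.0251% and 0.346% of epithelial-like cells.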

How the data were processed

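The authors deposited raw UMI counts of each gene and of the antibody tag. Cell Ranger 6.1.2 is named per the file headers, and GRCh38 per the submitters' processing notes; a normalization or cell annotation is not given in the sources used here. A single matrix held both libraries, so all barcodes were shared. Cells were taken by the limits given above with Python 3.11.15 (numpy 2.4.6, scipy 1.17.1, pandas 2.3.3). Median depth was 15811 RNA UMIs in cardiomyocytes and 17453 in epithelial-like cells. Counts were summed per side and scaled to CPM over all RNA UMIs of that side, and the ratio of cardiomyocytes over epithelial-like cells was taken for genes of at least 20 CPM on the higher side, with a conditional binomial 95% interval. A ratio of at least 2 or at most 0.5 was called higher or lower. PCR copies are removed by the UMI, but intervals and floors cover counting error only. Named genes were the 15 highest and 15 lowest ratios at 50 CPM or more, with a floor of 3 counts, without the genes that chose the cells and without mitochondrial and ribosomal protein genes. The members of the gene lists, pairs and marker lists were named in addition, those in the text for their values, and some items are not reported here. Members and lists were chosen with earlier results of these data known, and the ribosomal list was added later. Intervals of medians come from ranked members or cells. Shares of cells with a UMI were taken after thinning each cell to 5000 UMIs and without thinning. Likely doublets were kept on both sides if they met the limits, and were removed in an alternative with Scrublet (scanpy 1.11.5), which called 11.6% of 12119 cells, 3.28% of cardiomyocytes and 2.05% of epithelial-like cells. Gene positions and promoters are from RefSeq, assembly GRCh38.p14. The scripts were tested on simulated data. The authors' counting of reads shared by near-identical genes is not given in the sources used here.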

Additional observations from a re-analysis of the deposited data

How the results depend on the processing

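Across 14 alternatives, 345 named genes gave 4830 values, of which 4776 stayed on the same side of 2-fold, 54 (from 21 genes) came under 2-fold and 0 changed direction. Of the genes called higher or lower by name in the report, ISL1, MEIS1, ID1, KCNA5 and DSP came under 2-fold in at least 1 alternative, as did 3 of the 9 higher mitochondrial mRNAs. The genes higher and lower in cardiomyocytes numbered 1840 and 2128 with a floor of 5 CPM, and 4704 and 4858 with no floor beyond 3 counts, against 1073 and 1325. The sarcomere median log2 ratio was 5.46 with CPM over nuclear-encoded UMIs, 5.501 with ratios centred on the median gene (a shift of 0.14), 4.92 in cells of 5000 to 15000 UMIs, 5.45 in cells over 15000 UMIs, 5.51 without Scrublet calls and 5.65 with stricter sides (TNNT2 of at least 4000 CPM and at most 1 epithelial UMI, against under 500 CPM and at least 10 UMIs). The nuclear oxidative phosphorylation median was 1.26 and 1.30 under the nuclear and centred scalings, with 61 and 62 members higher against 48, and the ribosomal median was -0.58 and -0.55. The ratio of median CD34 tags was 2.34 in the cells kept for thinning, which had at least 5000 RNA UMIs and whose tags were not thinned. It was 2.38 over 15000 UMIs and 2.47 with stricter sides. The ratio of median mitochondrial shares was 1.91 in cells of 5000 to 15000 UMIs, 2.21 over 15000 UMIs, 1.89 with at most 15% mitochondrial UMIs and 2.14 with stricter sides. The proliferation median was -1.04 with stricter sides, where 9 members were lower. The cause was not tested. Of 350 list medians 339 lay within the interval of the main value. That interval reflects the spread among a list's members and covers their full range in the shortest lists. For the 3 measured trophoblast genes it ran from -6.37 to -2.47. Lying within it is therefore no measure of stability. The sign changed in 2, both of lists near 0: antigen presentation was -0.04 with no floor beyond 3 counts, against 0.39, and basement membrane and matrix was -0.06 with stricter sides, against 0.23. The share of called genes that were higher was 44.7%, 51.0% with nuclear scaling and 51.6% with centring. No paired analysis was possible because there was 1 culture with no replicates, and no interval here covers variation between cultures. Genes under the 20 CPM floor were not called.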
